A study of Zea mays with 13 samples.

Results

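The maize microRNA gene families MIR169, MIR395, MIR399 and MIR827 were followed across 3 histone marks in young leaves after drought and after recovery. Members were all features of the deposited count tables named after these families, which gave 41 genes of 43943 features. MIR169 had 17 genes (a to f and h to r), MIR395 had 13 (a to f, i and k to p), MIR399 had 10 (a to j) and MIR827 had 1. The tables held another 113 microRNA genes, which were used for comparison. Mature microRNA sequences were not used here.

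MicroRNAs are short RNAs cut from a hairpin transcript that pair with messenger RNAs and lower their output. The genes are transcribed by RNA polymerase II, so an active microRNA gene is known to carry the promoter marks H3K4me3 and H3K9ac, while H3K27me3 is the Polycomb mark of silent genes. In Arabidopsis, miR399 acts on transcripts of PHO2, a ubiquitin-conjugating enzyme that limits phosphate uptake, and is induced when phosphate is short. miR827 acts on transcripts of SPX-domain proteins, which in Arabidopsis include the ubiquitin ligase NLA and in rice include SPX-MFS phosphate transporters. miR395 acts on transcripts of ATP sulfurylases and of a sulfate transporter and is induced by low sulfate in Arabidopsis. miR169 acts on transcripts of NF-YA transcription factor subunits and responds to drought in Arabidopsis.

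Plants of the inbred B73 were raised in a greenhouse to the V5-V6 leaf stage. For 10 days they were then given either 75% of the disposable water (well watered, NS) or 25% (drought stressed, WS), both at a low salt level. Immature wrapped leaves were collected at the end of that period (T0) or after 7 days of recovery (T7). Chromatin immunoprecipitation followed by sequencing (ChIP-seq) gave 1 library per mark and group, and 1 further library of whole chromatin, labelled as control plants after 10 days, was the background for all groups. H3K4me3 libraries held 2793985 to 6876219 counts, H3K9ac libraries 1152884 to 1856159 and H3K27me3 libraries 1612935 to 1969485. Whether plants were pooled is not given, and with 1 library per group no comparison of groups has a replicate. The gene models carry IDs with no names in the sources used here, so the leaf identity and the targets of these microRNAs were not checked.

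Enrichment is the log2 ratio of scaled mark counts over scaled whole-chromatin counts in the 1 kb window at the transcription start, given relative to the median feature of the same library. The members had 43 to 85 whole-chromatin counts in that window but only 2 to 15 over the gene itself. The word marked stands for genes that in each of the 4 libraries exceeded the 25th percentile of enrichment by 2-fold or more. The window in which the marks were counted is not given, and the 1 kb window is an assumption. It sets the levels below: against the whole-gene counts all 41 members lay above the median feature for both marks. There 37 were marked for H3K4me3 and 41 for H3K9ac, against 53.6% and 40.8% of all features. No member reached 20 whole-gene counts, the minimum used for enrichment elsewhere. MIR399g and MIR827 ranked 1 and 2 among the members for H3K4me3 against either window. Ratios between libraries do not use whole chromatin.

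Against the 1 kb window, H3K4me3 lay above the median feature in every library at 2 of the 41 genes, MIR399g and MIR827. Both belong to phosphate families, but the other 9 MIR399 genes lay below the median feature, and MIR827 lay only slightly above it. These 2 were the members marked for H3K4me3, against 60.0% of all features and 34 of the 113 other microRNA genes. The closest genes below the threshold were MIR169a, whose largest shortfall was 0.25 on the log2 scale, in the stressed T0 library, and MIR169b. Pooled over the 4 libraries, the 95% counting interval of H3K4me3 enrichment lay above the median feature at 2 members, where 44.5% of all features did so, and below it at 39, where 45.2% of all features did. Of the other microRNA genes 13.3% lay above and 80.5% below. None of the 7 genes of the copper families MIR397, MIR398, MIR408 and MIR528 lay above. H3K9ac enrichment was likewise highest at MIR399g, followed by MIR827, on a narrower scale. MIR399g was the 1 member marked for H3K9ac, against 31.1% of all features. No test of these shares was made. In whole leaves, fewer cells that carry a mark and less of the mark per cell cannot be told apart.

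**Figure D1:**
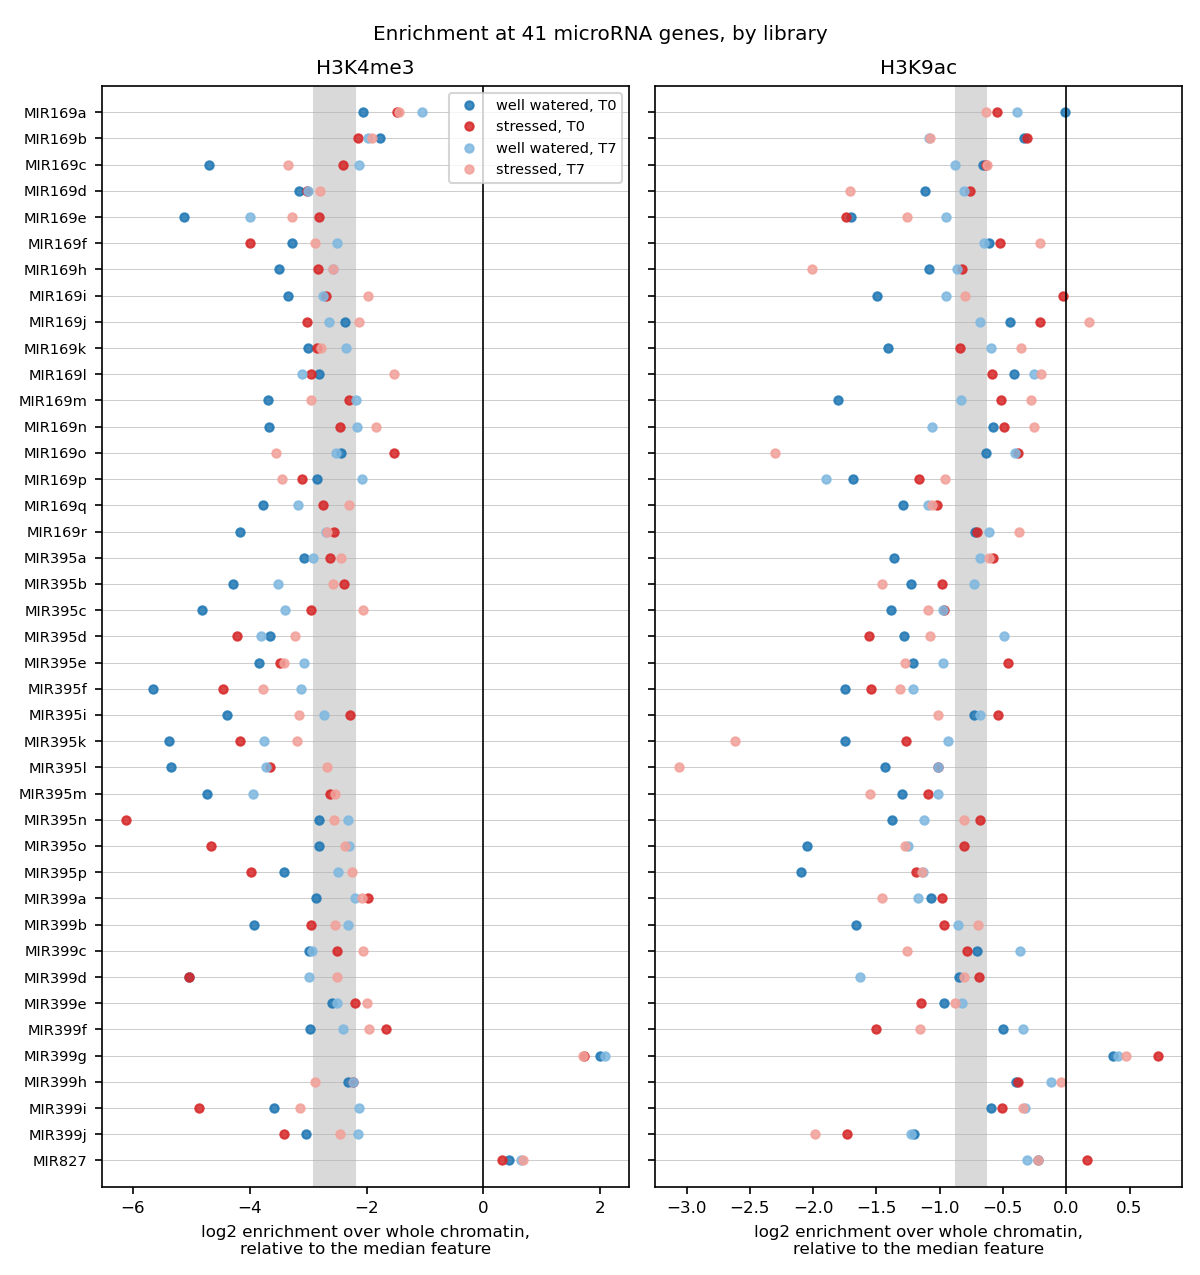
Log2 enrichment over whole chromatin (1 kb window) relative to the median feature, x axis, for H3K4me3 (left) and H3K9ac (right) at each of the 41 genes, y axis. Each point is 1 of the 4 libraries, the vertical line is the median feature and the grey band spans the 25th percentiles of the 4 libraries. MIR399g and MIR827 stand to the right of the line for H3K4me3 in every library, while all other genes stand to the left. MIR395n at stressed T0 had 0 H3K4me3 counts and is drawn with the prior of 0.5 counts.

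MIR399g was the most strongly H3K4me3-marked member. It held 442 H3K4me3 counts in well-watered plants at T0, 156 in stressed plants at T0, 274 in well-watered plants at T7 and 327 in stressed plants at T7, with 74 whole-chromatin counts. These libraries differ in depth, and on the scaled level MIR399g was slightly lower in both stressed libraries than in both watered ones. Its H3K4me3 enrichment was 2.01, 1.72, 2.09 and 1.70 in the same order, which placed it at the 85.1th to 91.4th percentile of all features. H3K9ac counts at MIR399g were 43, 52, 33 and 31. The H3K9ac enrichment was 0.37, 0.72, 0.41 and 0.47, positive in all 4 libraries and highest in stressed plants at T0. Its smallest margin over the threshold for marked genes was 0.044 on the log2 scale, in the watered T7 library. With the libraries pooled, its H3K4me3 enrichment was 1.88 (95% interval 1.55 to 2.25) and its H3K9ac enrichment was 0.54 (0.14 to 0.96).

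The other 9 MIR399 genes held little H3K4me3. At T0 their counts ran from 3 to 18 with full watering and from 1 to 15 after stress. At T7 they ran from 7 to 14 and from 10 to 26. Their median H3K4me3 enrichment was -2.62, and the median of the whole family with MIR399g was -2.52. MIR399d had the lowest mean H3K4me3 enrichment of the family, -3.89, with 3, 1, 8 and 18 counts in the order watered T0, stressed T0, watered T7 and stressed T7. Both T0 libraries were thus lowest at MIR399d. Within the family MIR399h came next to MIR399g for H3K9ac, with 21, 20, 19 and 18 counts and a mean enrichment of -0.24. MIR399a, the nearest gene to MIR399g on one side in the Zm-B73-REFERENCE-NAM-5.0 annotation, held 15, 12, 14 and 24 H3K4me3 counts, so the high level of MIR399g was not shared by this neighbour. On the other side the annotation places a protein-coding gene, LOC100193696, whose part in the counts of MIR399g was not tested.

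MIR827, the single gene of the second phosphate family, held 157, 62, 106 and 169 H3K4me3 counts in the same order, over 78 whole-chromatin counts. Its H3K4me3 enrichment was 0.44, 0.32, 0.65 and 0.68, at the 54.9th to 60.6th percentile of all features, so that it sat just above the middle in every library. Its H3K9ac counts were 30, 37, 21 and 20. H3K9ac enrichment was -0.22, 0.16, -0.31 and -0.23, above the median feature in stressed plants at T0 alone. The pooled H3K9ac value, -0.09, had a 95% interval from -0.53 to 0.35 that held the median feature. In the annotation MIR827 overlaps a long non-coding RNA gene, LOC100274914, so reads of both cannot be told apart.

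MIR169, the NF-YA family, was low in H3K4me3 at all 17 genes. The family median was -2.78 and the means ran from -3.80 to -1.51. MIR169a was highest, with 22, 14, 26 and 31 H3K4me3 counts and enrichments of -2.06, -1.49, -1.05 and -1.45. Its watered T7 library was the highest and its watered T0 library the lowest. MIR169e was lowest, with 3, 7, 4 and 11 counts. MIR169e and MIR169h overlap each other in the annotation, so their counts are uncertain: MIR169h held 9, 6, 10 and 16. For H3K9ac the family median was -0.80, and the pooled interval lay below the median feature at 13 of 17 genes, where 31.1% of all features did. MIR169j was highest, with 27, 30, 17 and 28 H3K9ac counts and a mean enrichment of -0.29. Its stressed T7 library lay above the median feature and its other 3 libraries lay below.

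MIR395, the sulfate family, had the lowest family medians of the 4 for both marks, -3.45 for H3K4me3 and -1.11 for H3K9ac. Pooled intervals lay below the median feature at all 13 genes for each mark. Of all features 45.2% lay below for H3K4me3 and 31.1% for H3K9ac. Among the other microRNA genes the shares were 80.5% and 51.3%, and among the copper families 100% and 57.1%. MIR395a was highest for H3K4me3, with 14, 8, 9 and 20 counts and a mean enrichment of -2.77. MIR395f was lowest of all 41 members, with 2, 2, 8 and 8 counts and a mean of -4.25. Both of its T0 libraries held the same small number, so the differences at this gene rest on a few counts. MIR395n held 11, 0, 9 and 12 H3K4me3 counts, the 0 falling in the stressed T0 library. A count of 0 allows up to 3 counts, or 1.09 scaled CPM (counts normalized to library size) in that library. MIR395i was highest for H3K9ac, with 13, 14, 10 and 7 counts and a mean of -0.74. All 13 MIR395 genes lie next to another MIR395 gene in the annotation, so neighbouring windows may share reads and the genes are not independent measurements.

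**Figure D2:**
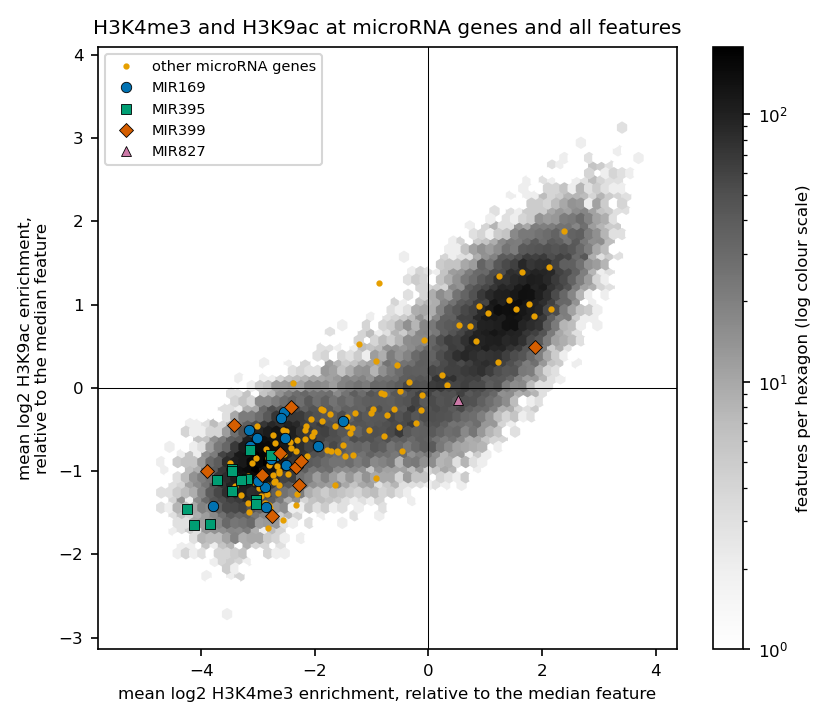
Mean log2 enrichment of H3K4me3 (x axis) and of H3K9ac (y axis) over the 4 libraries of each mark, relative to the median feature. Grey hexagons count all features on a log colour scale, and points are microRNA genes by family. MIR399g stands in the upper right at 1.88 and 0.49, MIR827 near the centre at 0.52 and -0.15, and the other members lie with the features low in both marks.

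The plot of both marks shows where the members fall among all features. The 39 genes other than MIR399g and MIR827 had a median H3K4me3 enrichment of -3.00 and a median H3K9ac enrichment of -0.98. The other microRNA genes had -1.90 and -0.58, and the copper families -1.85 and -0.63. For H3K4me3, 27 to 32 of the 41 members lay under the 25th percentile of the library. For H3K9ac the number was 24 to 29. At 7 members, MIR169a, MIR169f, MIR169j, MIR169l, MIR399h, MIR399i and MIR827, the pooled H3K9ac interval held the median feature. In the annotation 14 members overlap a long non-coding RNA gene. These 14 had a median H3K4me3 enrichment of -2.66 and the other 27 had -3.03. Among the 14, MIR169c, MIR169e and MIR169h also overlap a protein-coding gene, whose part in their counts was not tested. ChIP-seq reads in an overlap cannot be told apart by gene, and how they were counted is not given, so overlapping genes may share reads. The annotation is of another build than the counts.

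Drought and recovery were compared in 4 ratios per mark: stressed over watered at T0 and at T7, and T7 over T0 in watered and in stressed plants. These share libraries, so a library that stands apart enters 2 of them. A member was called where the scaled counts differed 1.5-fold or more and an exact binomial interval of the ratio, at a two-sided error of 0.001, left out 1, with at least 40 counts over the 4 libraries. This is a rule of size on counting error, not a test of the conditions. For H3K4me3, 20 members had enough counts, and no member was called in any ratio. The background was 1.97% of 35654 features for stressed over watered at T0, 0.191% at T7, 3.05% for T7 over T0 in watered and 2.26% in stressed plants. For H3K9ac, 33 members had enough counts and again no member was called. There the background was 1.27% of 41294 features at T0, 0.194% at T7, 1.44% for watered and 0.308% for stressed plants over time. With so few features called at this depth, a count of 0 among 20 or 33 genes lies near the background.

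Most members held too few counts for a moderate rise to be called. The smallest rise that the rule could take had a median over the tested members of 3.38-fold for H3K4me3 at T0 and 2.82-fold at T7, and 2.65-fold and 2.73-fold for H3K9ac. MIR399g and MIR827 were better covered, and for H3K4me3 at T0 a rise of 1.5-fold and 1.56-fold would have been enough. A rise below the limit of a gene could not be called in that comparison, with the count of the watered library held as it was. No limit was computed for falls.

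For MIR399g the scaled H3K4me3 level in stressed plants was 0.847 of that in watered plants at T0, a log2 ratio of -0.24 (95% interval -0.52 to 0.02). At T7 it was 0.797 of the watered level, a log2 ratio of -0.33 (-0.56 to -0.09). Both ratios were below 1, and the T7 interval left out no change, though these intervals cover counting error only. Over time the log2 ratios were 0.03 (-0.20 to 0.25) in watered and -0.06 (-0.34 to 0.23) in stressed plants. For H3K9ac, MIR399g had log2 ratios of 0.45 (-0.16 to 1.07) at T0 and 0.03 (-0.73 to 0.78) at T7, and both intervals held 0.

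MIR827 had H3K4me3 log2 ratios of -0.07 (-0.53 to 0.35) for stressed over watered at T0 and 0.09 (-0.27 to 0.46) at T7. Over time they were 0.15 (-0.22 to 0.51) in watered and 0.31 (-0.11 to 0.76) in stressed plants. Every interval held 0. The H3K9ac ratio at T0, 0.48 (-0.25 to 1.23), was close to that of MIR399g, and at T7 it was 0.05 (-0.91 to 1.0).

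**Figure D3:**
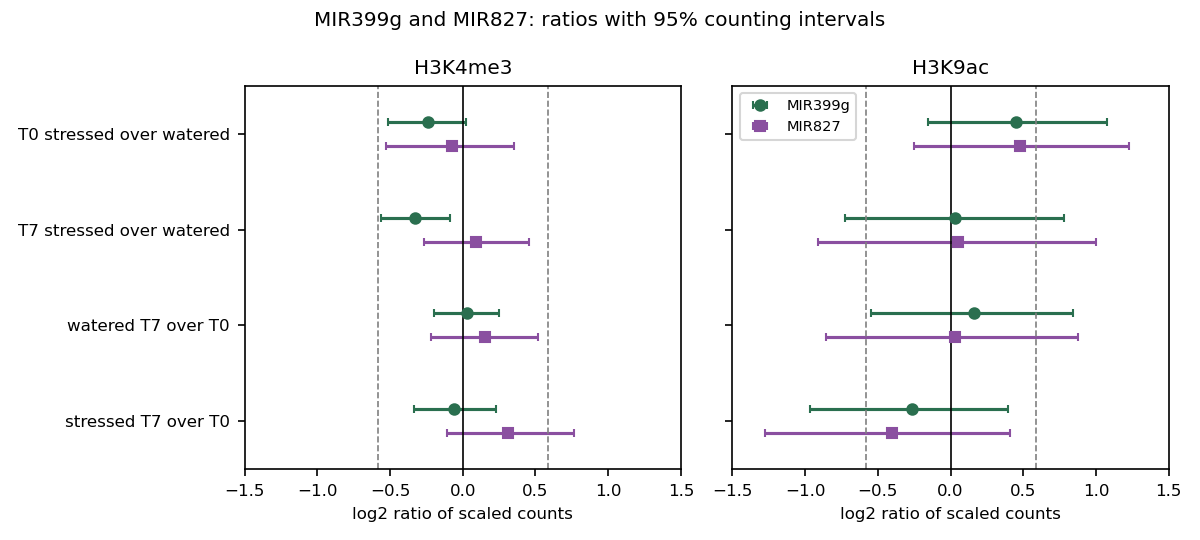
Log2 ratios of scaled counts (x axis) at MIR399g and MIR827 for the 4 comparisons (y axis), H3K4me3 on the left and H3K9ac on the right. Bars are 95% intervals of counting error and dashed lines mark 1.5-fold. No ratio reached 1.5-fold, and the interval of MIR399g for H3K4me3 at T7 is the one that leaves out 0.

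The plot of ratios with their intervals shows both genes close to no change for H3K4me3, and wider intervals for H3K9ac because of the lower counts. Scaling matters here. When libraries were scaled on the least enriched features (those below the 25th percentile of mean enrichment), the H3K4me3 log2 ratios at T0 became -1.0 for MIR399g and -0.84 for MIR827, and in watered plants over time -0.86 and -0.73. Both genes were then called lower in both comparisons, where 51.0% and 62.2% of the tested features were called. This scaling moved the median ratio of the tested features to -0.76 and -0.88.

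The watered T0 library gave the lowest H3K4me3 enrichment at 25 of the other 39 members, 64.1%. The same library was lowest at 60.5% of the 17424 features without the H3K4me3 mark. Enrichment is relative to the median feature of the same library, so the choice of scaling cannot change these shares. Sums and ratios of scaled counts do depend on it. With TMM scaling the sums over the 17 MIR169 genes were 29.8, 43.4, 45.2 and 47.4 scaled CPM in watered T0, stressed T0, watered T7 and stressed T7 plants. For MIR395 they were 11.8, 17.7, 20.1 and 28.5, and for MIR399 without MIR399g 15.7, 22.4, 24.3 and 27.2. In all 3 families the watered T0 sum was the lowest and the stressed T7 sum the highest. Scaling on the least enriched features does not keep this order. Over these 39 genes the median H3K4me3 log2 ratio of stressed over watered at T0 was 0.63, where features without the mark had 0.64, and of T7 over T0 in watered plants 0.72 against 0.64. The watered T0 library had the highest contrast, the fold between the 95th and 25th percentiles of enrichment, with 40.1 against 22.4 to 23.0 in the other 3. With scaling on the least enriched features these medians became -0.14 and -0.17, and with the trend of the ratio on enrichment removed they became -0.04 and -0.09, so their direction depends on the scaling. The part of contrast in them was not tested.

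H3K9ac sums differed less between libraries. For MIR169 they were 159, 199, 180 and 190 scaled CPM in the same order, with watered T0 again the lowest. MIR395 had 77.04, 115, 121 and 88.6, so its stressed T7 library was nearly as low as watered T0. MIR399 without MIR399g had 86.5, 87.4, 103 and 88.6, a spread of less than 1.5-fold. The median H3K9ac log2 ratio over the 39 genes was 0.30 for stressed over watered at T0 and -0.06 at T7, and at T0 it became -0.12 with scaling on the least enriched features.

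**Figure D4:**
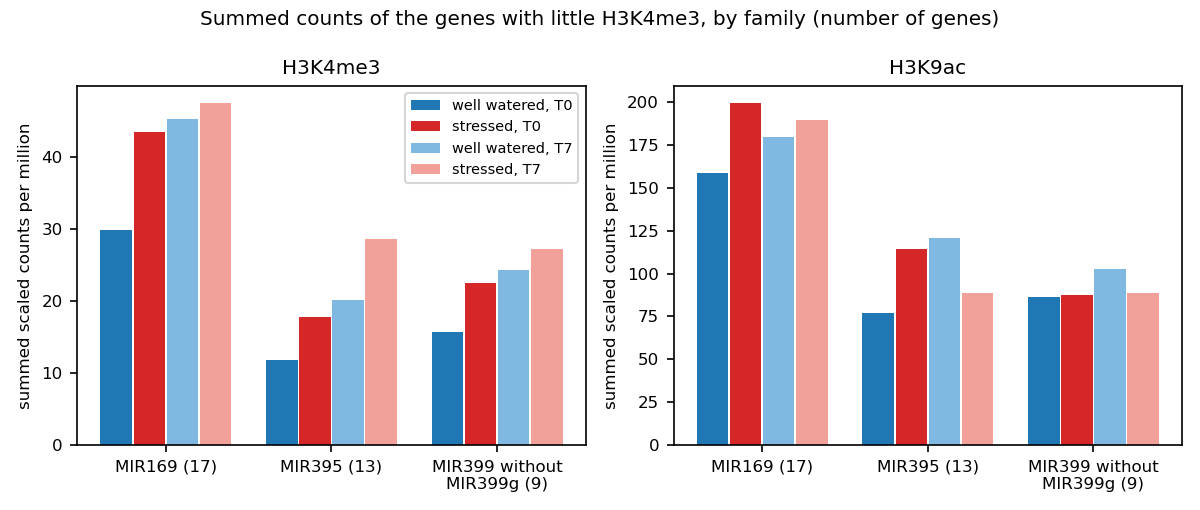
Summed scaled CPM (y axis, from 0) of the genes with little H3K4me3, by family with the number of genes (x axis), for H3K4me3 on the left and H3K9ac on the right. Each bar is 1 library of a group, with no replicates. With TMM scaling the watered T0 bar is the lowest of each family for H3K4me3, an order that scaling on the least enriched features does not keep.

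The plot of family sums shows the watered T0 bar lowest in all 3 groups of genes for H3K4me3 with TMM scaling. For H3K9ac the gap was smaller in MIR399 without MIR399g, where the sums were 86.5, 87.4, 102.8 and 88.6 scaled CPM in the same order, so that watered T0, stressed T0 and stressed T7 lay close together. Single genes below the rule are given with 95% intervals. MIR395b held 6, 10, 6 and 19 H3K4me3 counts, with a log2 ratio of stressed over watered of 1.95 (0.39 to 3.74) at T0. MIR399f, with 14, 15, 12 and 26 counts, had 1.36 (0.21 to 2.52) at T0. Its H3K9ac counts, 24, 11, 20 and 10, were lower in the stressed libraries, with log2 ratios of -0.91 (-2.12 to 0.14) at T0 and -0.85 (-2.14 to 0.28) at T7, and both intervals held 0. MIR169l, with 11, 4, 5 and 25 counts, had 1.63 (0.33 to 3.48) at T7. In H3K4me3 these 3 stood higher in a stressed than in a watered library. The least enriched features had median log2 ratios of 0.71 at T0 and 0.02 at T7. The H3K9ac ratios in the same comparisons were 0.35 (-0.70 to 1.42) for MIR395b and 0.02 (-1.14 to 1.17) for MIR169l. MIR169o went the other way over time in stressed plants, with 15, 12, 8 and 6 H3K4me3 counts and a log2 ratio of -2.07 (-3.83 to -0.60). Its H3K9ac counts were 16, 18, 14 and 3, with a ratio of -1.93 (-4.52 to -0.34) in the same comparison, so MIR169o was lowest in the stressed T7 library for both marks. MIR169i held 10 H3K9ac counts in watered and 27 in stressed plants at T0, a log2 ratio of 1.57 (0.52 to 2.83), and 11 in both T7 libraries. Its H3K4me3 ratio at T0 was 0.71 (-1.10 to 2.33). These 5 genes were chosen after their values were seen. Others also passed 1.5-fold with a 95% interval: MIR169m for H3K9ac at T0, and MIR169a and MIR169n for H3K4me3 in watered plants over time. Of the tested features, 7.11% passed for H3K4me3 at T0, 2.44% at T7, 8.77% in watered and 6.34% in stressed plants over time. For H3K9ac 10.4% passed at T0 and 6.18% in stressed plants over time.

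A fit over all 4 libraries of a mark, with additive terms for watering and time, gave the only test with a residual spread. It left 1 residual degree of freedom per feature, and the interaction of watering and time served as error. A stress difference present at T0 but not at T7 therefore enters the error, and the fit cannot test for it. By edgeR's quasi-likelihood test, p-values were adjusted by Benjamini-Hochberg over all features with at least 40 counts. For watering 0 of the 20 H3K4me3 members were called, where 0.00280% of the tested features were. For time 0 were called, where 3.90% were. At an unadjusted p under 0.05, 2 of 20 members were found for watering, where 6.62% of the tested features were. For time 0 were found, where 16.5% were. DESeq2 called 0 members for each term, but also 0 of all 35654 tested features, so it adds nothing about the members. The 2 were MIR399g, with a log2 difference of -0.29 (SE 0.11, adjusted p = 0.625) for stress, and MIR395b, with 1.5 (SE 0.63, adjusted p = 0.688). Neither passed the adjustment. For H3K9ac, edgeR and DESeq2 called 0 of 33 members for either term. There edgeR called 0.00242% of features for watering and 0% for time, and DESeq2 called 0 of all 41294 tested features. At an unadjusted p under 0.05 edgeR gave 0 of 33 members for each term. Of the tested features, 4.01% were found for watering and 4.54% for time. MIR827 had H3K4me3 differences of 0.01 (SE 0.17) for stress and 0.23 (SE 0.17, adjusted p = 0.563) for time in edgeR's test.

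H3K27me3 counts were few at these short genes, 0 to 10 per gene and library. It was set against the whole-gene counts of whole chromatin. The pooled 95% interval lay above the median feature at 7 of 41 members, where 23.2% of all features and 34.5% of the other microRNA genes did so, and below it at 0 members, where 19.8% of all features did. The share of 17.1% among the members is not above that background. The 7 were MIR169c, MIR169d, MIR169i, MIR395a, MIR395b, MIR395o and MIR399j. MIR169c, which overlaps a protein-coding gene, held 9, 8, 2 and 7 H3K27me3 counts in watered T0, stressed T0, watered T7 and stressed T7 plants. MIR395a held 7, 5, 3 and 9, and MIR399j held 4, 4, 1 and 10. The watered T7 library was lowest at these 3 genes, and it was also the shallowest H3K27me3 library. MIR395b, with 6, 6, 4 and 5 counts, was lowest there too, and MIR395o held 2, 5, 2 and 7. MIR169d, with 4, 2, 3 and 4, and MIR169i, with 7, 5, 5 and 4, were lowest in other libraries. Summed over the 113 other microRNA genes the counts were 390, 361, 240 and 368, so a low watered T7 count is not particular to these members. MIR399g, high in H3K4me3, held 0, 0, 1 and 4 H3K27me3 counts over 4 whole-gene counts of whole chromatin, with a pooled enrichment of 0.98 (95% interval -1.21 to 3.34). MIR827 held 0, 1, 2 and 1, with a pooled enrichment of -0.23 (-2.50 to 1.59). Both intervals held the median feature, so neither a high nor a low level was detectable at this depth. Counts as low were found at other members, such as MIR399e and MIR399i with 1 each over all 4 libraries.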

How the data were processed

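ChIP-seq was run for H3K4me3, H3K9ac and H3K27me3 in 4 groups, with 1 library per mark and group and 1 whole-chromatin library, 13 in all. The deposited values are raw counts per feature, not normalized, per the labels. CASAVA 1.8, Bowtie2 and the build B73 RefGen_v4 are named in the submitters' processing notes. How reads were counted, in which window and with what treatment of duplicates is not given in the sources used here. Antibodies came from Active Motif (H3K4me3, H3K27me3) and Millipore (H3K9ac), per the labels.

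Tables were joined on the feature ID without regard to case. Counts were scaled by TMM (edgeR 4.0.16, R 4.3.3) over features with at least 40 counts in the 4 libraries of a mark. Log2 values carry a prior of 0.5 counts. Enrichment used features with at least 20 whole-chromatin counts (43580 features, all 41 members). Intervals are exact Clopper-Pearson intervals of counting error only. The additive edgeR fit covered all features with at least 40 counts, and DESeq2 1.42.0 was the alternative tool. On simulated H3K4me3 counts for 35654 features, the additive fit recovered 199 of 200 features changed 4-fold, with 5 false calls. The changed features were drawn at random from all tested features, with an assumed dispersion and the same change at both times. Most members hold fewer counts than the median feature, so this recovery does not give the sensitivity of the fit at the members. Neighbours came from the RefSeq annotation of Zm-B73-REFERENCE-NAM-5.0, another build, by name, with all 41 members found and no coordinates used.

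Counts in every library are given for members past the size rule, for the highest and lowest mean H3K4me3 and the highest mean H3K9ac enrichment of each family, and for MIR827. The neighbours MIR169h and MIR399a, the second-highest MIR399h and the H3K27me3 examples were added after their values were seen. Members, lists and the definition of marked genes were chosen with earlier results of these data known. Alternatives were other scalings, count filters, fold and interval limits, priors and backgrounds.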

Additional observations from a re-analysis of the deposited data

How the results depend on the processing

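Of the 22 main results, only the counts of members called in the additive fits kept their value, 0, under every alternative tried. These fits called few features of any kind. The main edgeR fit called 1392 for H3K4me3 over time but 1 for watering, and 1 and 0 for H3K9ac watering and time. DESeq2 called 0 features for each mark and term. A constant 0 therefore says little about the members. The other main results moved under some alternative, as given here. Scaling by total counts could not move the enrichment medians, which are relative to the median feature of the same library. Against whole-gene counts with no count minimum, an alternative chosen after seeing the data, the H3K4me3 family medians of MIR169, MIR395, MIR399 and MIR827 became 1.28, 0.74, 1.34 and 4.91 with 37 members marked. The H3K9ac medians became 3.03, 3.02, 3.16 and 4.05 with 41 marked. Of all features 53.6% were then marked for H3K4me3 and 40.8% for H3K9ac. For H3K4me3 MIR399g and MIR827 still ranked 1 and 2, and in H3K9ac their ranks were 1 and 4. Under the count minimum of 20 the whole-gene alternative gave no value. A prior of 2 counts moved the H3K4me3 medians of MIR169, MIR395 and MIR399 to -2.60, -3.01 and -2.37. Scaling on the least enriched features called 2 members for H3K4me3 at T0 and 2 in watered plants over time. Without a count filter 1 member, MIR169c with 4 and 15 H3K4me3 counts, was called in watered plants over time, beside 2.7% of all features. With 1.5-fold and no interval, 11, 6, 7 and 5 members were called for H3K4me3 (T0, T7, watered and stressed over time). For H3K9ac 7, 10, 11 and 5 were called. Across both marks 7.69% to 26.5% of the tested features were called. With 1.5-fold and a 95% interval, H3K4me3 had 2, 1, 2 and 1 members called and H3K9ac 2, 1, 0 and 1. Beside them 2.44% to 10.4% of the tested features were called.  The cause of these shifts was not tested. Low counts and single libraries limit all ratios. No paired analysis was possible because each group has 1 library, and none could be left out, since the additive fit would keep no residual degrees of freedom.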
